A study of Mus musculus with 2 samples.

Results

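Expression of the nuclear receptor superfamily was described in cultured mesenchymal stem/progenitor cells of mouse bone marrow with and without the receptor PPARg. The 47 receptor genes examined were chosen by name as members of the superfamily, PPARs and RXRs included, and not by a measured value. All 47 were found among the 19565 genes that could be named in the deposited transcript files. Of these receptors, 14 reached 1 FPKM in at least 1 library, where FPKM is the number of sequenced fragments scaled by transcript length and by the library total. The other 33 stayed under 1 FPKM in both libraries.

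Nuclear receptors are transcription factors that share a zinc-finger DNA-binding domain and, in most members, a ligand-binding domain for steroids, thyroid hormone, retinoids, vitamin D, oxysterols or fatty acids. Many of them, among them the PPARs, the LXRs, the vitamin D receptor and the retinoic acid and thyroid hormone receptors, bind DNA together with an RXR. Bound receptors exchange corepressor complexes for coactivator complexes, and in marrow stromal cells several of them steer precursor cells towards fat or bone.

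The study holds 2 libraries, 1 from cells with floxed PPARg alleles and 1 from PPARg-deficient cells, both from CD-1 mice aged 3 months. Total RNA was extracted from cells grown in DMEM with fetal bovine serum. The labels do not give the exons between the loxP sites, the recombinase used, the number of mice or whether cells were pooled. With 1 library per genotype no spread between cultures can be measured, so no test was made and every difference below compares these libraries only.

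Fragment counts were inferred here from the deposited confidence bounds and came to about 6771399 in the floxed and 7666974 in the deficient library over transcripts of at least 300 nt. Intervals below are 95% Poisson intervals of those fragments and cover counting error only. The libraries differed in composition. The 100 most abundant genes held 55.9% of fragments in the floxed and 35.4% in the deficient library, and Spp1, which encodes osteopontin, alone held 7.93% and 0.0348%. Across 10762 genes and unnamed loci of at least 1 FPKM in a library the median log2 fold, taken on FPKM plus 1, was 0.86 in favour of the deficient library, and the median FPKM ratio was 2.25. Differences are therefore given as deposited and relative to this median gene. In bulk RNA, fewer cells of a type and less RNA per cell cannot be told apart. Of 15 stromal markers 11 reached 1 FPKM, with a summed level of 796 FPKM in the floxed and 1852 FPKM in the deficient library. Relative to the median gene 2 of these 11 were at least 2-fold higher and 2 lower, and their median log2 fold was 0.02. Vim was at 51.2 FPKM in floxed and 441.7 FPKM in deficient cells, and Alcam at 8.80 and 1.98 FPKM. Of 14 macrophage markers 3 reached 1 FPKM, with sums of 6.36 and 34.6 FPKM. These were Lyz2 at 0.258 FPKM in floxed and 19.5 FPKM in deficient cells, Cd14 at 4.52 and 12.5 FPKM and Cd68 at 1.56 and 2.10 FPKM. Ptprc, Adgre1, Itgam, C1qa, C1qb, Fcgr1 and Tyrobp were at 0 in both libraries. None of the 8 lymphocyte and 7 endothelial markers reached 1 FPKM. Of 8 matched osteoblast markers 5 did, with sums of 48773 and 429.9 FPKM, most of it Spp1. Of these Ibsp, the bone sialoprotein gene, was at 7.56 FPKM in floxed cells and listed at 0 in deficient cells, Alpl, which encodes alkaline phosphatase, at 7.49 and 0.139 FPKM, Runx2 at 6.96 and 4.87 FPKM and Col1a1 at 173 and 190.6 FPKM. Of 7 osteoclast markers 2 did, with sums of 48.8 and 150.4 FPKM, Ctsk at 44.0 and 149.7 FPKM but Acp5 at 4.73 and 0.651 FPKM. Of 8 granulocyte markers 2 did, with sums of 27.9 and 10.9 FPKM, Mcpt8 at 21.5 and 4.04 FPKM and Camp at 6.41 and 6.78 FPKM. As deposited Spp1, Ibsp, Alpl, Runx2, Acp5 and Mcpt8 were thus lower in the same library as the receptors described next as lower. Runx2 differed by less than 2-fold, and Ctsk, Camp and Col1a1 were not lower as deposited. The part of all these markers in the receptor values was not tested.

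Relative to the median gene, 6 of the 14 receptor genes passed 2-fold towards lower values in PPARg-deficient cells (Pparg, Rorb, Nr1h3, Nr4a1, Nr1d1 and Nr4a2), 0 were at least 2-fold higher and 8 lay within 2-fold. By the same rule 11.8% of all genes and loci were lower and 10.3% higher. As deposited, 4 receptors were at least 2-fold higher (Nr1h2, Nr3c1, Nr2f2 and Nr2c1) and 4 lower (Pparg, Rorb, Nr1h3 and Nr4a1), beside 42.0% higher and 4.67% lower among all genes and loci. Without a pseudocount 1 receptor (Nr1h2) was higher and the same number of 6 lower, beside 16.4% and 16.1%. The deposited bounds of the most abundant transcript were apart for 10 of the 14, beside 72.4% of all genes and loci. The 14 are not a neutral sample of the family. Rorb, Nr1h3, Nr4a1 and Nr4a2 passed the level of 1 FPKM through the floxed library only, and Nr1d2, Rora, Nr1h2, Vdr and Nr2c1 through the deficient library only. Over all genes and loci 4.28% passed through the floxed library only and 23.0% through the deficient library only. Pparg, Nr1d1, Rxra, Nr2f2 and Nr3c1 passed it in both.

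**Figure D1:**
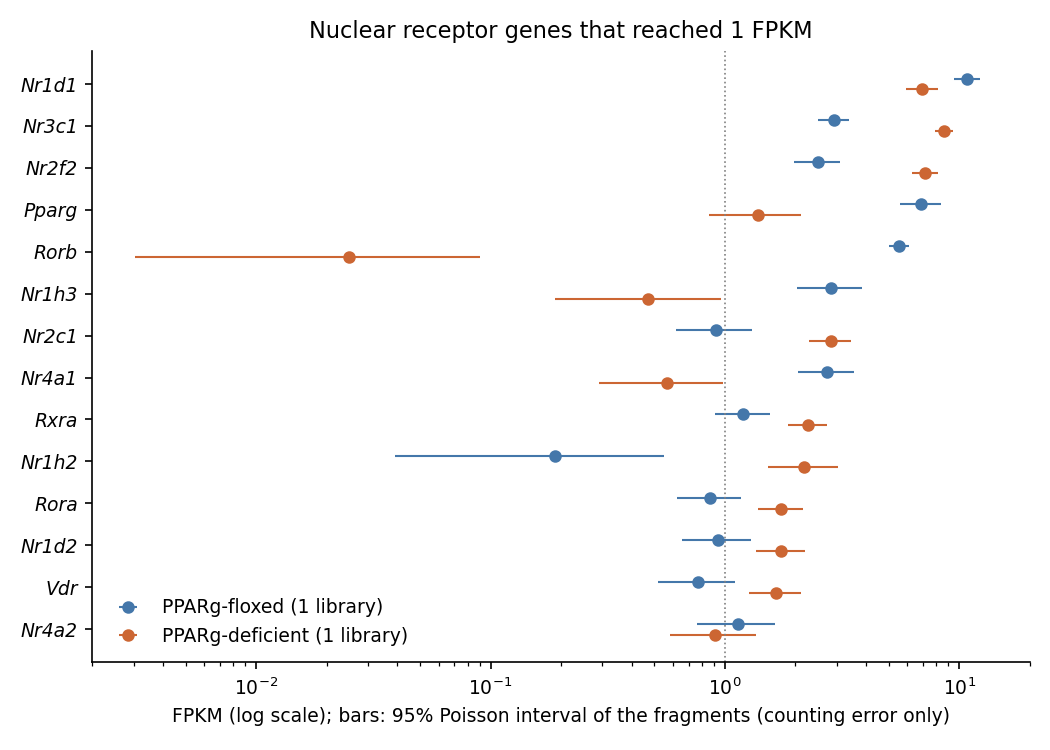
FPKM (log scale) of the 14 nuclear receptor genes that reached 1 FPKM, in the floxed and the deficient library (1 library each). Bars are 95% Poisson intervals of the inferred fragments and cover counting error only, and the dotted line marks 1 FPKM. With intervals apart, Pparg, Rorb, Nr1h3, Nr4a1 and Nr1d1 lie lower in the deficient library and the other 8 genes besides Nr4a2 lie higher.

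Summed over the 47 genes the receptors held 43.9 FPKM in the floxed and 43.8 FPKM in the deficient library, or 1465 and 1596 fragments. The sums were thus level as deposited, but lower in the deficient library relative to the median gene, whose FPKM ratio was 2.25. The genes behind these sums differed. In the floxed library Nr1d1 stood highest at 10.8 FPKM (interval 9.49 to 12.3), followed by Pparg at 6.86 (5.58 to 8.35) and Rorb at 5.54 (5.03 to 6.08), whose intervals overlap. Nr3c1, Nr1h3, Nr4a1 and Nr2f2 came next at 2.50 to 2.91 FPKM and could not be ordered by their intervals. In the deficient library Nr3c1 led at 8.58 FPKM (7.85 to 9.38), with Nr2f2 at 7.14 (6.28 to 8.11) and Nr1d1 at 6.96 (5.93 to 8.15), and these 3 neighbours also overlap. Pparg, second in the floxed library, was at 1.39 FPKM there. For reference, the median gene or locus of at least 1 FPKM in a library stood at 2.90 FPKM in the floxed and 6.35 FPKM in the deficient library, below the 3 highest receptors of each.

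Pparg (chromosome 6, 115310824 to 115440419, plus strand, mm9) encodes the fatty acid receptor that drives fat cell formation and is the gene targeted in the study. It was at 6.86 FPKM in the floxed library, from 99 fragments, and at 1.39 FPKM in the deficient library, from 21 fragments. The ratio of deficient over floxed was 0.202 (interval 0.120 to 0.326), and the relative log2 fold was -2.58. The signal left in the deficient library was mostly assigned to a first exon that floxed cells also used. Transcript 3 (start 115312376) was listed at 4.69 FPKM in floxed cells, with bounds of 3.38 and 6.0 in the file, and at no more than 0.137 FPKM in deficient cells. Transcript 2 (start 115311239) had 2.17 FPKM (1.21 to 3.13) in floxed and 0.957 FPKM (0.378 to 1.53) in deficient cells. Transcript 1 (start 115311099) had no more than 0.143 FPKM in floxed and 0.430 FPKM (0 to 0.890) in deficient cells. All 3 share 7 exons and differ only in the first one. The first exon of transcript 3 is 90 bases shorter than that of transcript 2, so the split between them rests on few fragments. A loss of transcript 3 alone is therefore not established.

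Of the annotated starts of Pparg, the upstream ones make the PPARg1 mRNA, and a start 59774 bases downstream of that of Pparg-204, the annotated match of transcript 3, makes the PPARg2 mRNA known from fat cells. The window before the start of Pparg-204 is shown (RefSeq, GRCm38.p6, chr6:115362099-115362291, plus strand). Beside it stands that before the PPARg2 start (chr6:115421816-115422065, plus strand), which had no signal in either library. Capitals mark the GC box GGGCGG or its reverse complement.

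Pparg upstream start: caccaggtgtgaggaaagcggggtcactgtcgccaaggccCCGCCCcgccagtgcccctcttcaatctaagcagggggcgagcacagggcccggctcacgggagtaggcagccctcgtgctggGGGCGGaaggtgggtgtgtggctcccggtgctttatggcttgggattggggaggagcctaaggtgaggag

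Pparg PPARg2 start: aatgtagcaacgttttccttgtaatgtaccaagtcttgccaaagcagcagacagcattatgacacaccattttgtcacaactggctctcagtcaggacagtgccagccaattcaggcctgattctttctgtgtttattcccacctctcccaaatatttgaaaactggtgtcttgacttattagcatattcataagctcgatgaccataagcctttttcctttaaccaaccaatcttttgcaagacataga

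The upstream window of 250 bases was 63.6% G and C and held 2 GC boxes, 210 and 127 bases before the RefSeq start. Its last bases lie downstream of the annotated start of Pparg-204, 57 bases before the RefSeq start, and are not printed. They hold the receptor core motif AGGTCA 9 bases before the RefSeq start. The window of the first upstream start holds it 28 bases before. That copy also lies downstream of an annotated start, that of Pparg-202, 193 bases before the RefSeq start. The PPARg2 window was 40.8% G and C and held none of the 4 motifs searched on both strands, which were AGGTCA, the E-box CACGTG, the CRE TGACGTCA and GGGCGG. No match overlapped another. Of 32851 RefSeq promoter windows of 250 bases, 14% held AGGTCA, 6.02% CACGTG, 1.55% TGACGTCA and 32.7% GGGCGG.

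The related PPARs were near 0. Ppara, the receptor of fat burning in liver, was at 0.0630 FPKM in the floxed library from 4 fragments and at 0 in the deficient library. Ppard, which has a broad range of tissues, was at 0.0732 and 0.142 FPKM from 2 and 4 fragments. Neither level could be compared at this depth. Pparg was thus the PPAR with nearly all of the family's signal in both libraries, at 6.86 of 7.0 FPKM in the floxed and 1.39 of 1.53 FPKM in the deficient library.

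Rxra (chromosome 2, 27532721 to 27618839, plus strand) encodes RXRα, the partner with which PPARg binds DNA. It was at 1.20 FPKM in the floxed library (0.903 to 1.56, 55 fragments) and 2.26 FPKM in the deficient library (1.85 to 2.73, 107 fragments), a ratio of 1.88 (1.35 to 2.66). This lay close to the median gene, with a relative log2 fold of -0.29. Rxrb was at 0.206 and 0.749 FPKM from 4 and 15 fragments, and Rxrg was at 0 in both libraries. RXRα was the only RXR to reach 1 FPKM. In the floxed library its FPKM was below that of Pparg, with intervals apart, and in the deficient library their intervals overlap.

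Nr1h3 and Nr1h2 encode LXRα and LXRβ, the oxysterol receptors that raise cholesterol efflux and fatty acid synthesis, and they moved in opposite directions as deposited. Nr1h3 (chromosome 2, 91024218 to 91035273, minus strand) was at 2.83 FPKM in the floxed library (2.03 to 3.84, 41 fragments) and 0.468 FPKM in the deficient library (0.188 to 0.965, 7 fragments). Its ratio was 0.165 (0.0626 to 0.372) and its relative log2 fold -2.24. Nr1h2 (chromosome 7, 51804999 to 51809293, minus strand) was at 0.189 FPKM (0.0390 to 0.552, 3 fragments) and 2.19 FPKM (1.53 to 3.03, 36 fragments). The ratio of Nr1h2 was 11.6, with a wide interval of 3.66 to 58.7. Relative to the median gene its log2 fold was 0.57 with a pseudocount of 1 FPKM, short of 2-fold, and 2.36 without one, since the pseudocount damps a gene this low. Nr1h3 was thus the LXR gene with the higher FPKM in the floxed library and Nr1h2 in the deficient library, with intervals apart in each. LXRα is known from macrophages as well as from fat and liver, and the summed macrophage markers moved the other way, from 6.36 to 34.6 FPKM. Their part in the values was not tested. The RefSeq window before the Nr1h3 start used in both libraries (GRCm38.p6, chr2:91195152-91195366, minus strand, cut at the first annotated start) is shown because this gene lost most of its signal. It held none of the 4 motifs.

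Nr1h3: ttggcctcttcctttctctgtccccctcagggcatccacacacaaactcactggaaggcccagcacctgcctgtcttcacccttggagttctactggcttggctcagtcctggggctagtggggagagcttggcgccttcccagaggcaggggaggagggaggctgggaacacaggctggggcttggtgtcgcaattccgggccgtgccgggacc

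The FXR genes were low or at 0. Nr1h4, the bile acid receptor FXR, was at 0.224 and 0.0541 FPKM from 4 and 1 fragments, and Nr1h5 was at 0 in both libraries. Vdr (chromosome 15, 97684855 to 97738727, minus strand), the vitamin D receptor, was at 0.771 FPKM in the floxed library (0.517 to 1.11, 29 fragments) and 1.65 FPKM in the deficient library (1.27 to 2.10, 64 fragments). Its relative log2 fold of -0.28 put it near the median gene. The xenobiotic receptors Nr1i2 (PXR) and Nr1i3 (CAR) showed no fragments in either library.

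None of the thyroid hormone and retinoic acid receptors reached 1 FPKM. Thrb, the thyroid hormone receptor β, was at 0.582 FPKM in the floxed library from 30 fragments and at 0.0563 FPKM in the deficient library from 3. Its ratio of 0.0968 (0.0189 to 0.311) was, after Rorb, the lowest of the family among genes with at least 10 fragments in a library. Thra went the other way as deposited, from 0.162 to 0.628 FPKM, with 3 and 12 fragments and a ratio of 3.87 (1.05 to 21.4). The listed Thra transcript ended 2819 bases before Nr1d1 on the opposite strand. In the later annotation Thra-201 runs into Nr1d1 for 1075 bases, and the handling of strand is not given in the sources used here, so reads from the shared stretch cannot be told apart. Rara, Rarb and Rarg, the retinoic acid receptors, were at 0 to 0.140 FPKM in the floxed library and 0.0730 to 0.271 FPKM in the deficient library, from at most 6 fragments each.

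**Figure D2:**
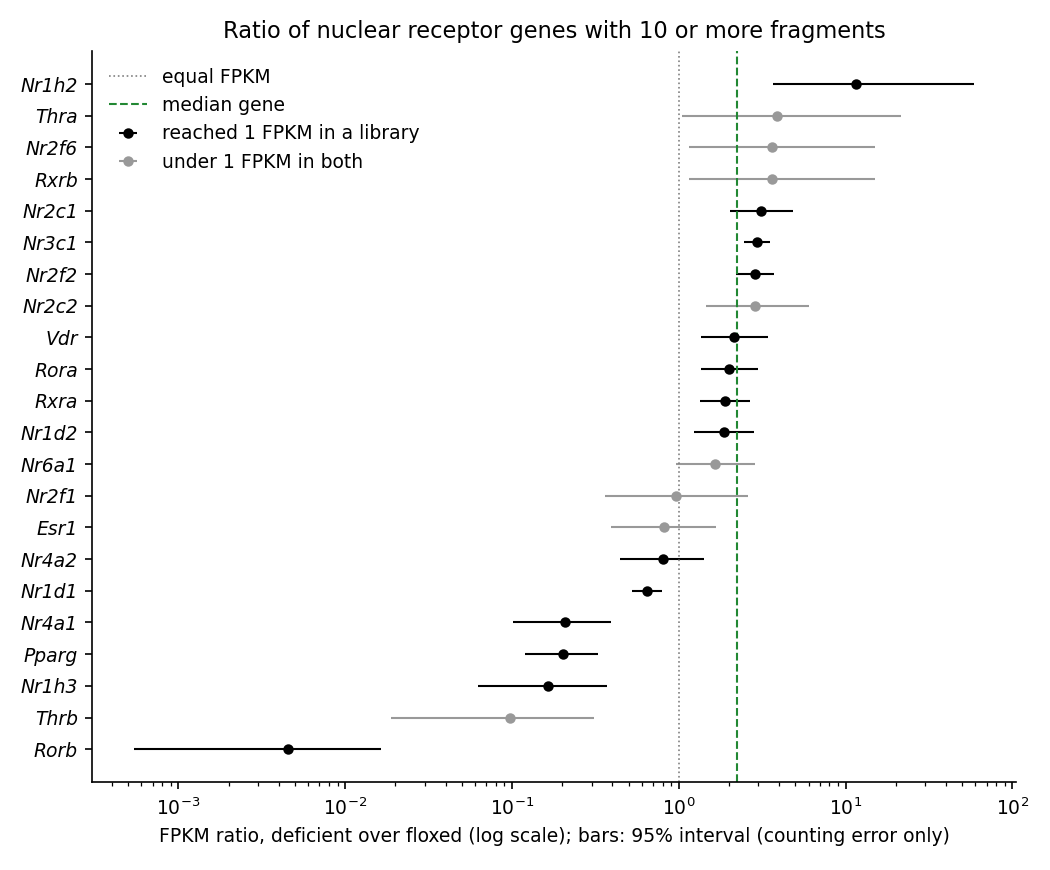
FPKM ratio of the deficient over the floxed library (log scale) for receptor genes with at least 10 inferred fragments in a library. Bars are 95% intervals of counting error, the dotted line marks equal FPKM, and the dashed line the median ratio of 2.25. The intervals of Rorb, Thrb, Nr1h3, Pparg, Nr4a1, Nr1d1, Nr4a2 and Esr1 lie below the median ratio, and those of Nr1h2 and Nr3c1 lie above it.

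Rorb and the REV-ERB genes belong to the receptors that bind the same response elements in the circadian clock, where RORs activate and REV-ERBs repress. Rorb (chromosome 19, 19005099 to 19185686, minus strand), best known from neurons and the retina, had 437 fragments in the floxed library, the most of any of the 47 genes there. It was at 5.54 FPKM (5.03 to 6.08) in the floxed library and at 0.0250 FPKM (0.00303 to 0.0903) in the deficient library, where it had 2 fragments. The ratio was 0.00451 (0.000544 to 0.0164), and the relative log2 fold of -3.53 was held down by the pseudocount, since without it the value was -8.96. As a gene sum this was the largest difference of the family, while by the most abundant transcript alone Pparg came first, at -3.36 against -3.10 for Rorb. Of 6 nerve and Schwann cell markers 2 reached 1 FPKM, with sums of 4.59 and 2.21 FPKM, and their part in the difference was not tested.

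Both transcripts of Rorb with signal were affected. The form with its start at 19075607 had 3.88 FPKM (3.37 to 4.39) in floxed and 0.0250 FPKM (0 to 0.0603) in deficient cells. The other starts 110079 bases further upstream, at 19185686, and went from 1.66 FPKM (1.29 to 2.02) to an upper bound of 0.0235 FPKM. They share 9 exons and differ only in the first. Since both fell, the RefSeq windows before each (GRCm38.p6, minus strand, chr19:19111197-19111446 upstream and chr19:19001118-19001367 downstream) are shown side by side, with GC boxes in capitals.

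Rorb upstream start: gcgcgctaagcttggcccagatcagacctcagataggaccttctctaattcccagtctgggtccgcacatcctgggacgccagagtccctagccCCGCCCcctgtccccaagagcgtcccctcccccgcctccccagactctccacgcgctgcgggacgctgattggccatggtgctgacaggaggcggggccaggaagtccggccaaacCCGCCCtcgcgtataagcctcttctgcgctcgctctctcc

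Rorb downstream start: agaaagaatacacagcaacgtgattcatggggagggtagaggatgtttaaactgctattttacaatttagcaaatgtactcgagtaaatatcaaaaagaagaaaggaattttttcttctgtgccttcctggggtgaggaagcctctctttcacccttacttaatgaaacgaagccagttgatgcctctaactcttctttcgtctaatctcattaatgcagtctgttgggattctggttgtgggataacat

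The windows had little in common in composition. The upstream one was 66% G and C with 2 GC boxes, 156 and 40 bases before the start, and the downstream one was 39.2% G and C with none. Neither held the core receptor motif, the E-box or the CRE.

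Rora (chromosome 9, 68501609 to 69230699, plus strand), the broadly expressed ROR, did not follow Rorb. It was at 0.866 FPKM (0.622 to 1.18, 41 fragments) in the floxed library and 1.74 FPKM (1.39 to 2.15, 85 fragments) in the deficient library, with a relative log2 fold of -0.30. All but a trace of this came from Rora-202, which starts at 69137736, at 0.866 and 1.74 FPKM.

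Nr1d1 (chromosome 11, 98629244 to 98636604, minus strand) encodes REV-ERBα, the repressor of Bmal1 in the clock and a receptor for heme. It was at 10.8 FPKM in the floxed library (9.49 to 12.3, 237 fragments) and 6.96 FPKM in the deficient library (5.93 to 8.15, 158 fragments). Its ratio of 0.643 (0.523 to 0.790) was a relative log2 fold of -1.43 but -0.57 as deposited, so the 2-fold call depends on the reference to the median gene. The drop was not shared evenly between its transcripts. The 8-exon form Nr1d1-201 had 8.36 FPKM (7.01 to 9.71) in floxed and 6.96 FPKM (5.86 to 8.07) in deficient cells, which overlap. A 7-exon form that starts 48 bases upstream went from 2.46 FPKM (1.59 to 3.34) to an upper bound of 0.0897 FPKM.

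Nr1d2 (chromosome 14, 19036570 to 19071620, minus strand), which encodes REV-ERBβ, was at 0.935 FPKM (0.659 to 1.29, 37 fragments) and 1.74 FPKM (1.36 to 2.19, 72 fragments), with a relative log2 fold of -0.36. Its 2 forms share a start and exchanged places. A 9-exon form went from 0.935 FPKM (0.627 to 1.24) to 0.220 FPKM (0 to 0.456), and the 8-exon form Nr1d2-201, whose first exon keeps a stretch of 69 bases, from an upper bound of 0.0499 FPKM to 1.52 FPKM (1.11 to 1.92). Of 23 clock genes, 4 of them receptors named here, 14 reached 1 FPKM, and relative to the median gene 2 were at least 2-fold lower and 0 higher, near the shares of 11.8% and 10.3% over all genes and loci. The 2 were Rorb and Nr1d1. Ciart, a clock repressor, was at 6.91 and 10.04 FPKM, and Csnk1d, a kinase of the PER proteins, at 11.0 and 21.8 FPKM, relative log2 folds of -0.38 and 0.06.

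**Figure D3:**
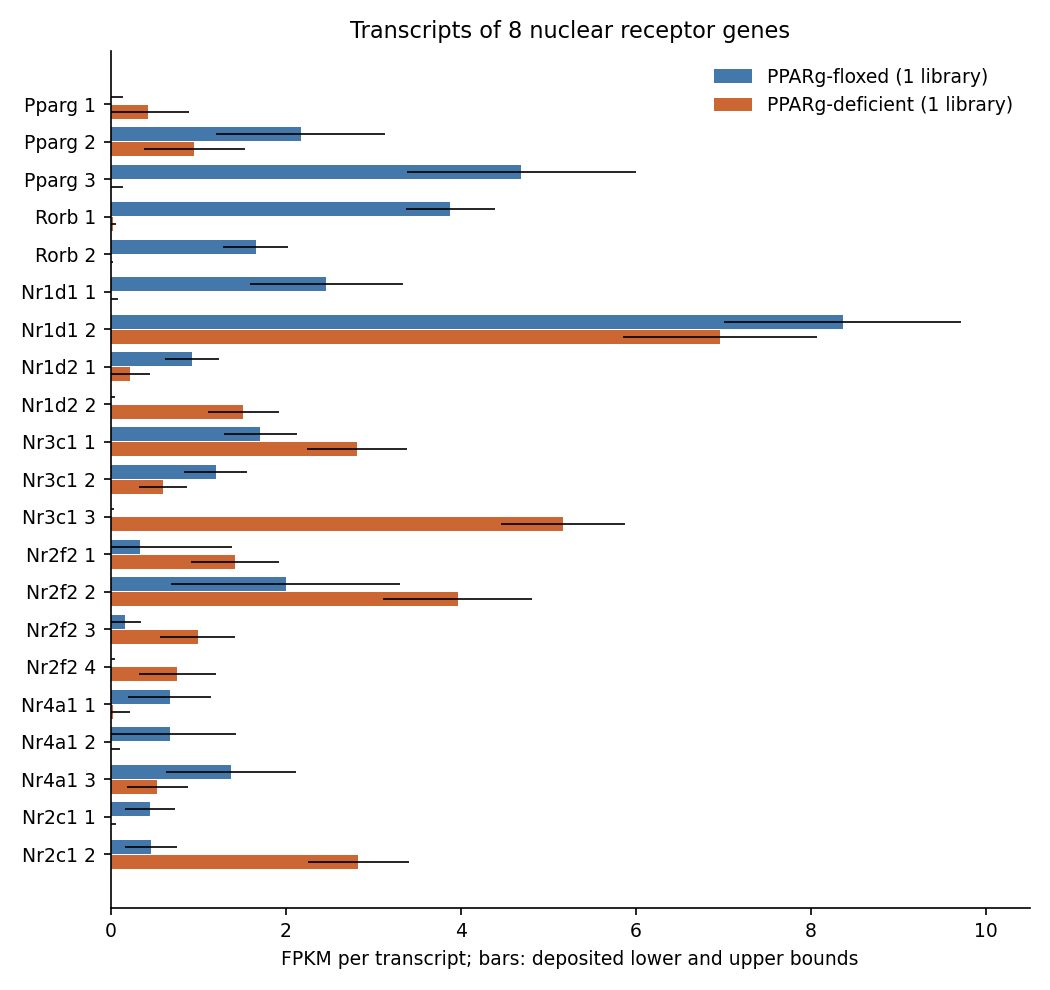
FPKM of the transcripts of 8 receptor genes in the floxed and the deficient library, with the deposited lower and upper bounds as lines. The numbers after a gene name its transcripts in the order of the files (Pparg 1 to 3 by start from upstream, Nr3c1 3 the form that starts at 39650592, Rorb 2 the upstream start). Pparg 3, both Rorb forms and Nr1d1 1 are near 0 in the deficient library, and Nr3c1 3 and Nr1d2 2 near 0 in the floxed library.

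Among orphan receptors without an accepted hormone, Nr2f2 and Nr2c1 were higher as deposited and close to the median gene. Nr2f2 (chromosome 7, 77496829 to 77511632, minus strand) encodes COUP-TFII, a receptor of mesenchymal cells, veins and lymphatics. It was at 2.50 FPKM (1.98 to 3.11, 79 fragments) in the floxed library and 7.14 FPKM (6.28 to 8.11, 244 fragments) in the deficient library. Its ratio was 2.86 (2.21 to 3.74) and its relative log2 fold 0.36. The 4 Nr2f2 transcripts with signal begin with different first exons, and each had a higher value in the deficient library. The most abundant (start 77504744) had 2.0 FPKM (0.689 to 3.31) in floxed and 3.97 FPKM (3.11 to 4.82) in deficient cells, with overlapping bounds. The 1 furthest upstream, Nr2f2-202 at 77511632, went from an upper bound of 0.0557 FPKM to 0.763 FPKM (0.323 to 1.20).

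Nr2c1 (chromosome 10, 93610676 to 93659959, plus strand), the testicular receptor TR2, was at 0.913 FPKM (0.616 to 1.30, 30 fragments) and 2.83 FPKM (2.29 to 3.46, 96 fragments). The ratio was 3.10 and the relative log2 fold 0.14. Its partner Nr2c2 (TR4) was at 0.175 and 0.499 FPKM from 12 and 35 fragments, a ratio of 2.86 (1.45 to 6.05). Nr2c1 was listed as 2 forms that differ by 6 bases at an exon end. They were nearly equal in the floxed library, at 0.452 and 0.461 FPKM, and only the shorter had signal in the deficient library, at 2.83 FPKM. The related Nr2f1 (COUP-TFI) was at 0.496 and 0.480 FPKM from 10 fragments in each library, and Nr2f6 (EAR2) at 0.219 and 0.796 FPKM from 4 and 15 fragments.

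Nr3c1 (chromosome 18, 39570199 to 39650595, minus strand) encodes the glucocorticoid receptor and had the most fragments of the family in the deficient library. It was at 2.91 FPKM in the floxed library (2.49 to 3.40, 164 fragments) and 8.58 FPKM in the deficient library (7.85 to 9.38, 497 fragments). The ratio was 2.95 (2.46 to 3.54). Relative to the median gene the log2 fold was 0.43, short of 2-fold. The gain as deposited was assigned mainly to 1 transcript. The 9-exon transcript with its start at 39650592 had an upper bound of 0.0404 FPKM in the floxed library and held 5.17 FPKM (4.46 to 5.87) in the deficient library. Nr3c1-204, which starts 3693 bases downstream of it, was at 1.71 FPKM (1.29 to 2.13) and 2.82 FPKM (2.24 to 3.39). Nr3c1-202, which starts 3492 bases downstream of it and ends another exon 3 bases differently, went the other way, at 1.20 FPKM (0.839 to 1.56) and 0.600 FPKM (0.324 to 0.876), with bounds that overlap. The 9-exon transcript holds all 8 exons of Nr3c1-204 and adds 1 exon of 70 bases, so the split between them rests on the fragments that reach those bases. The glucocorticoid receptor gene is known for several alternative first exons that do not change the protein.

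The other steroid receptors were low. Nr3c2, the mineralocorticoid receptor, was at 0.0853 and 0.0825 FPKM from 3 fragments each, and Pgr, the progesterone receptor, at 0.0330 and 0.0479 FPKM. Esr1, the oestrogen receptor α, was at 0.395 FPKM (0.238 to 0.617, 19 fragments) and 0.322 FPKM (0.184 to 0.523, 16 fragments), and Esr2 had 1 fragment in the floxed library and 0 in the deficient one. The oestrogen-related receptors, which pair with PGC1 coactivators in mitochondrial gene control, were also close to 0. Esrra was at 0.108 and 0.157 FPKM from 2 and 3 fragments, Esrrg at 0.0217 FPKM and 0, and Esrrb at 0 in both libraries.

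The NR4A genes encode receptors that act without a bound ligand and are induced within minutes of many stimuli. Nr4a1 (NUR77, chromosome 15, 101097277 to 101105225, plus strand) was at 2.73 FPKM (2.05 to 3.55, 55 fragments) in the floxed library and 0.564 FPKM (0.292 to 0.986, 12 fragments) in the deficient library. The ratio was 0.207 (0.101 to 0.391) and the relative log2 fold -2.11. Its most abundant form, Nr4a1-201, was at 1.38 FPKM (0.631 to 2.12) and 0.536 FPKM (0.185 to 0.886), with overlapping bounds, while the rest of the floxed signal was listed under 2 other forms. Nr4a2 (NURR1, chromosome 2, 56959637 to 56976414, minus strand) was at 1.13 FPKM (0.760 to 1.63, 29 fragments) and 0.908 FPKM (0.582 to 1.35, 24 fragments). Its ratio of 0.801 (0.446 to 1.43) did not differ from 1 beyond counting error, and its relative log2 fold of -1.02 passed 2-fold by reference to the median gene alone. Nr4a3 (NOR1) was at 0 in both libraries. Dusp1, a phosphatase that is also an immediate-early gene, was at 1.34 FPKM in floxed and 11.2 FPKM in deficient cells. It was taken from the glucocorticoid response list, and immediate-early genes were not examined as a set. The part of stimulation in these values was not tested. The window before the Nr4a1 start (GRCm38.p6, chr15:101266596-101266845, plus strand) is shown for its density of GC boxes, in capitals.

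Nr4a1: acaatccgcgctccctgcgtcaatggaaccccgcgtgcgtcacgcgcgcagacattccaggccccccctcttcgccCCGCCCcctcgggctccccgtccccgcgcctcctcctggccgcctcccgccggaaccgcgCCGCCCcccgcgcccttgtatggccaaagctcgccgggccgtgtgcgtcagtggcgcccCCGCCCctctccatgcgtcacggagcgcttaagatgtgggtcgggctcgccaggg

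This window was 74.4% G and C and held 3 GC boxes, 174, 114 and 55 bases before the start. It held no full CRE TGACGTCA, and none of AGGTCA and CACGTG.

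Receptors without signal made up a large share of the family. Besides those named, Hnf4a and Hnf4g of liver and gut, Nr2e1 and Nr2e3 of brain and retina, Nr5a1 and Nr5a2 of steroid-making tissues and liver, and Nr0b1 were at 0 in both libraries, as were Nr1h5, Nr1i2, Rxrg, Esrrb and Nr4a3. These 12 zeros allow a level of up to 0.0797 to 0.208 FPKM in the floxed and 0.0772 to 0.202 FPKM in the deficient library, depending on gene length, by a limit of 3 fragments. Nr0b2 (SHP), which lacks a DNA-binding domain, had 1 fragment in the floxed library. Nr6a1, the germ cell nuclear factor, stood higher among the low genes at 0.448 and 0.734 FPKM, from 23 and 39 fragments. Of the 47 receptors 29.8% reached 1 FPKM in a library, beside 44.8% of all 19543 named genes of at least 300 nt.

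Coactivators and corepressors are the proteins that receptors recruit. Relative log2 folds are given in parentheses from here on. Of 70 such genes 53 reached 1 FPKM, and relative to the median gene 1 was at least 2-fold higher, 5 lower and 47 within 2-fold. Over all genes and loci 8386 of 10762 were within 2-fold, 10.3% higher and 11.8% lower. The median relative log2 fold was -0.24 over 27 coactivators and -0.0028 over 26 corepressors, against 0 by construction over all genes and loci. Ncoa7, a coactivator of oestrogen receptor and of oxidative stress defence, was at 26.0 FPKM in the floxed and 1.38 FPKM in the deficient library, with a difference of 617 to 49 fragments (-4.36). Tacc1, which binds nuclear receptors and microtubule-associated proteins, was at 26.1 and 2.54 FPKM (-3.80). Med1, the Mediator subunit that contacts PPARg and other receptors, was at 16.7 and 8.98 FPKM (-1.68). Pnrc1, a small proline-rich coactivator, was at 4.32 and 3.45 FPKM (-1.11). These fell by the rule used here, and Prmt1, the arginine methyltransferase that modifies histone H4, was the 1 that rose, from 0.998 to 8.16 FPKM (1.34).

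The 1 corepressor call was Hdac1, a histone deacetylase, at 9.62 and 7.25 FPKM (-1.22), and as deposited it was within 2-fold. The receptor corepressor Ncor1 was at 1.90 and 4.59 FPKM (0.09) and the deacetylase of its complex, Hdac3, at 21.7 and 53.2 FPKM (0.40). Hdac4 was level as deposited, at 9.10 FPKM in both libraries (-0.86). Trim28 was at 1.53 and 6.68 FPKM (0.75) and Sin3b at 5.11 and 17.5 FPKM (0.74). As deposited, 15 co-regulators were at least 2-fold higher and 2, Ncoa7 and Tacc1, lower, beside 42.0% and 4.67% of all genes and loci.

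**Figure D4:**
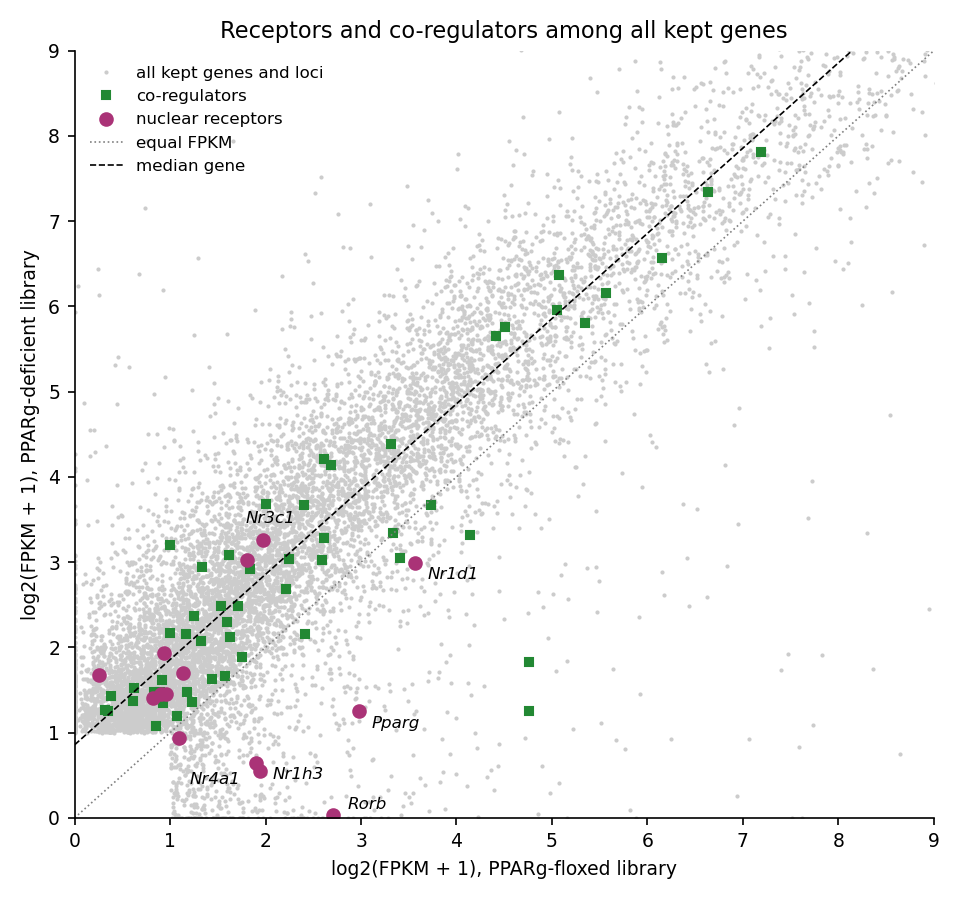
Log2 of FPKM plus 1 in the deficient against the floxed library for all genes and loci of at least 1 FPKM in a library (grey), co-regulators (squares) and nuclear receptors (circles). The dotted line marks equal FPKM and the dashed line the median shift of 0.86. Genes beyond the ends of the axes are not drawn. Receptors sit in the low part of the range, with Rorb, Nr1h3, Nr4a1 and Pparg well under the dashed line, and the pair of squares far below it are Ncoa7 and Tacc1.

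Genes that make, carry or break down receptor ligands changed in both directions. Of 41 listed, 38 were matched and 18 reached 1 FPKM, and relative to the median gene 5 were at least 2-fold higher and 4 lower, beside 10.3% and 11.8% of all genes and loci. As deposited 11 were higher and 2 lower, beside 42.0% and 4.67%. Both retinoic acid carriers rose, while fatty acid carriers went either way. Crabp1 went from 2.16 to 244 FPKM, from 9 to 1229 fragments (5.42), Crabp2 from 36.1 to 193 FPKM (1.53) and Fabp5, which brings fatty acids and retinoic acid to PPARd, from 15.2 to 220 FPKM (2.92). Aldh1a1, a retinaldehyde dehydrogenase that makes retinoic acid, rose from 0.339 to 38.6 FPKM (4.03). Hsd11b1, which regenerates active glucocorticoid within cells, fell from 13.4 to 0.897 FPKM (-3.78). The other higher call was Ptgis, the prostacyclin synthase, with 7.10 FPKM from 99 fragments in deficient cells, while floxed cells listed it at 0. The other lower calls were Aldh1a3, a second retinaldehyde dehydrogenase, at 2.96 and 0.462 FPKM (-2.29), and the fatty acid carriers Fabp3, at 13.4 and 6.32 FPKM (-1.83), and Fabp4, at 17.6 and 12.7 FPKM (-1.30). Fabp3 and Fabp4 were within 2-fold as deposited.

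Known targets of single receptors were read as lists, some of whose genes serve in more than 1 list. Their counts stand beside 10.3% of all genes and loci higher and 11.8% lower relative to the median gene, and 42.0% and 4.67% as deposited. Of 23 PPAR response genes 22 were matched and 15 reached 1 FPKM, and relative to the median gene 5 were at least 2-fold lower and 0 higher, with a median log2 fold of -0.90. As deposited 3 were lower and 0 higher, and the median was -0.04. Lpl, the lipase of lipoprotein triglycerides, fell from 176 to 2.78 FPKM (-6.41) and Adipoq, which encodes adiponectin, from 9.87 to 0.104 FPKM (-4.16). Angptl4, an inhibitor of that lipase, fell from 1.95 to 0.440 FPKM (-1.89). Adipoq and Angptl4 passed the level of 1 FPKM through the floxed library only, as did 4.28% of all genes and loci. Their lower calls are therefore not free of that filter. Fabp4 and Acsl1, which activates fatty acids and was at 5.06 and 4.23 FPKM (-1.07), passed 2-fold only by reference to the median gene. Of 10 adipocyte markers 2 reached 1 FPKM, with sums of 28.4 and 14.5 FPKM, and Lep, Plin1 and Retn were at 0 in both libraries. The part of fat-like cells in these values was not tested.

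LXR response genes did not move one way. Of 14, 7 reached 1 FPKM, with 1 higher and 2 lower relative to the median gene, and 1 of the lower ones was Nr1h3 itself. As deposited 3 were higher and 1 lower. Under 1 FPKM in both libraries, Abca1 was at 0.669 and 0.138 FPKM from 61 and 13 fragments, with intervals apart. Abcg1 was at 0.727 and 0.0190 FPKM from 37 and 1 fragments, also with intervals apart. Over all 14 listed, 5 had the higher FPKM in the deficient library, 7 in the floxed library, and 2 were at 0 in both. Pltp, the phospholipid transfer protein, rose from 10.6 to 56.9 FPKM (1.46), while Scd2, a desaturase, was at 254 and 199 FPKM (-1.21) and Scd1 at 38.4 and 35.4 FPKM (-0.97). Retinoic acid response genes gave 1 higher and 1 lower among 7 of at least 1 FPKM, of 13 matched, and 4 higher and 1 lower as deposited. The former were Crabp2 and Rarres2, the chemerin gene, which fell from 10.01 to 0.224 FPKM (-4.03).

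Of 15 glucocorticoid response genes 14 were matched and 7 reached 1 FPKM, and 3 of them rose and 1 fell relative to the median gene, beside 10.3% and 11.8% of all genes and loci. As deposited 3 were higher and 0 lower. Sgk1, a kinase induced by glucocorticoid and by serum, rose from 45.4 to 713 FPKM (3.09), Dusp1 as given above (1.53) and Mt2, a metallothionein, from 15.3 to 62.4 FPKM (1.10). Errfi1, an inhibitor of the EGF receptor, fell from 5.37 to 2.35 FPKM (-1.78), and Tsc22d3 (GILZ) was at 29.8 and 32.9 FPKM (-0.72). Mitochondrial genes of the ERR and PGC1 program reached 1 FPKM in 12 of 14 cases, with 3 higher and 1 lower relative to the median gene and 5 higher and 0 lower as deposited. Atp5b rose from 11.3 to 103 FPKM (2.22), Uqcrc1 from 8.74 to 58.0 FPKM (1.74) and Cox5b from 2.98 to 14.2 FPKM (1.08), and Acadm, a fatty acid dehydrogenase, fell from 72.9 to 47.6 FPKM (-1.46).

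**Figure D5:**
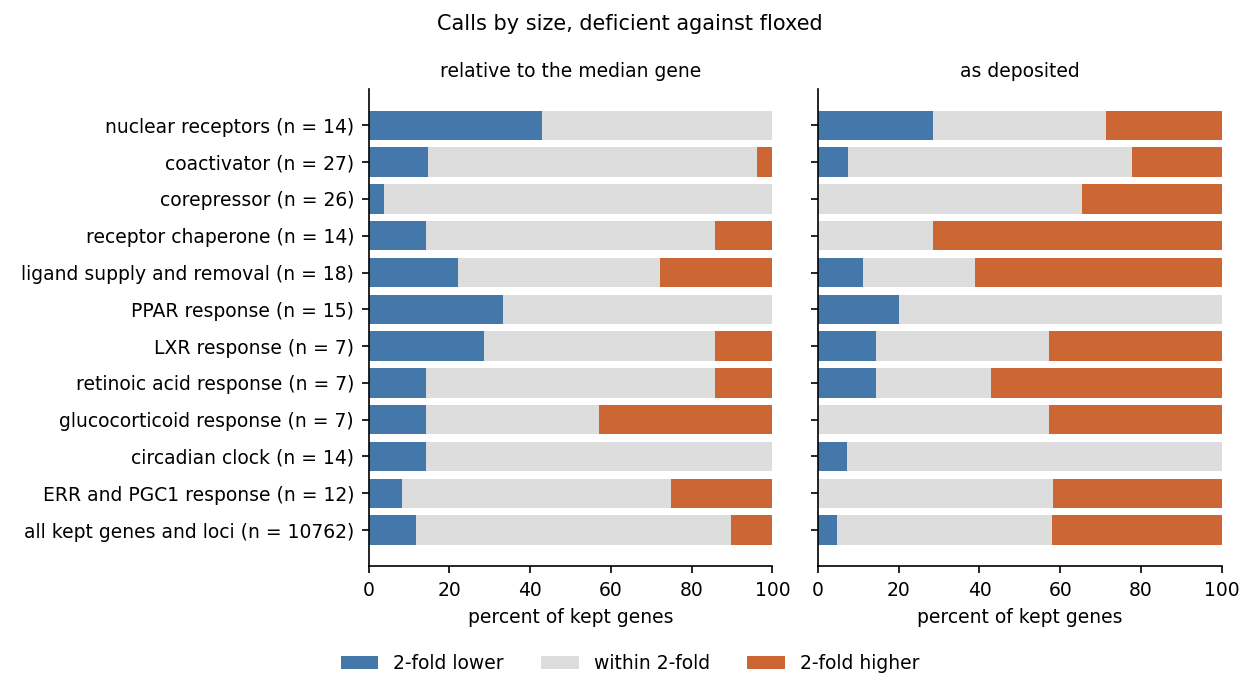
Share of genes of at least 1 FPKM in each list that were at least 2-fold lower, within 2-fold or at least 2-fold higher in the deficient library, relative to the median gene (left) and as deposited (right). The bottom bar shows all 10762 genes and loci. On the left 6 of 14 receptors and 5 of 15 PPAR response genes are lower and 0 higher, beside 11.8% lower and 10.3% higher for all genes and loci. Of the 6 receptors, Rorb, Nr1h3, Nr4a1 and Nr4a2 reached 1 FPKM in the floxed library only. So did Adipoq and Angptl4 of the 5 PPAR response genes.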

How the data were processed

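Each library is 1 deposited transcript file. The authors deposited FPKM per transcript with lower and upper bounds, per the file headers and attributes, in a field that mixes values with other text. Per the submitters' processing notes, the tools were TopHat2 2.0.5, Cufflinks 2.0.2 and Cuffdiff 2.0.2, and the build was mm9, with no role or order stated. Which annotation was used, what was filtered and how strand was treated is not given in the sources used here. Values in FPKM depend on a library's total, so abundant genes shift the others.

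Both files list the same 45543 transcripts in 25707 loci without gene symbols. Names were inferred by matching the ordered intron and internal exon lengths to GENCODE M21, which is on a later build, on the same chromosome. Of 37034 transcripts with at least 2 introns, 25605 matched as a whole, and 0 did so against wrong chromosomes. In all 19388 loci received a name. Esr1 matched only as a chain reversed on the opposite strand, and Nr0b1 by a single intron length. Gene coordinates are those of the files (mm9). Promoter windows come from RefSeq (GRCm38.p6), and nothing was converted.

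FPKM was summed per gene, and genes of at least 1 FPKM in a library and at least 300 nt were kept. The log2 fold (deficient over floxed, with 1 FPKM added to each value) was centred on the median kept gene or locus and called at 2-fold by size alone. Such folds understate changes of low genes, and centring puts a gene at 0 in both libraries at -0.86. Deposited bounds behave as the estimate plus or minus 2 square roots of the fragments. Fragments derived in this way were whole within 0.01 in 78.9% and 77.1% of loci with 1 transcript, and gave library totals of about 9056593 and 9359403 fragments. They are inferred values, and fractions are rounded. Only the fold call was tested on simulated data, and only for genes of at least 5 FPKM in the floxed library. Among the receptors Nr1d1, Pparg and Rorb alone reach that level there. The naming, the inferred fragments and the splits between transcripts were not simulated.

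Receptors of at least 1 FPKM were named with both values, transcripts were described where at least 2 of a gene reached 1 FPKM, and from each other list up to 4 genes of at least 5 FPKM with the largest relative fold were named. Transcripts of Nr1d2, Nr2c1, Nr4a1 and Rora, and the list genes Acp5, Col1a1, Pnrc1, Ncor1, Hdac3, Ptgis, Aldh1a3, Fabp3, Fabp4, Angptl4, Crabp2 as a ligand carrier and Tsc22d3, were named after their values were seen. So were Abca1 and Abcg1 of the LXR list. The members and lists were chosen with earlier results of these data known. Alternatives were other pseudocounts, filters, scalings, thresholds and the most abundant transcript. Python 3.11.15 with numpy 2.4.6, pandas 2.3.3, scipy 1.17.1 and matplotlib 3.10.9 was used.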

Additional observations from a re-analysis of the deposited data

How the results depend on the processing

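No paired analysis was possible because each group holds 1 library, and for the same reason no replicate could be left out. The count of 0 receptors at least 2-fold higher became 1 with a pseudocount of 0.1 FPKM, 1 with no pseudocount, 1 with the most abundant transcript, 3 with no filter on low values, 4 as deposited and 4 with TPM. The count of 6 lower became 2 with a pseudocount of 5 FPKM (Pparg and Rorb), 3 of the 5 receptors left by a filter of 5 FPKM and 3 where deposited bounds had to be apart (Pparg, Rorb and Nr1h3). It was 4 with no filter, as deposited, with TPM and at 4-fold, and 5 with upper-quartile scaling. The median receptor log2 fold of -0.33 became -0.0536 with no filter, -1.64 with a filter of 5 FPKM, 0.53 as deposited, -0.11 with upper-quartile scaling and 0.55 with TPM. Matching on the same strand only left these values as they were. Same-strand matching and the use of no pseudocount were alternatives chosen after seeing the data.

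Co-regulators at least 2-fold higher numbered 1, and 2 with a pseudocount of 0.1 FPKM, 0 with 5 FPKM, 15 with no filter, 15 as deposited, 19 with TPM, 0 with the most abundant transcript, 6 at 1.5-fold, 0 at 4-fold and 4 with no pseudocount. Those lower numbered 5, and 8, 3, 2, 2, 2, 8, 13, 2 and 8 in the same order, with 3 where bounds had to be apart. Over all genes and loci 1109 were higher, and 1725 with a pseudocount of 0.1 FPKM, 4200 with no filter, 732 with a filter of 5 FPKM, 4515 as deposited, 4574 with TPM, 2360 at 1.5-fold, 164 at 4-fold and 1717 with no pseudocount. The 1267 lower became 433 with a pseudocount of 5 FPKM, 536 with no filter, 503 as deposited, 598 with TPM, 2204 at 1.5-fold and 427 at 4-fold. They numbered 1741 with a pseudocount of 0.1 FPKM, 1687 with no pseudocount, 873 with a filter of 5 FPKM and 871 where bounds had to be apart. With no filter the median shift, taken over 24653 named genes and unnamed loci, was 0.0536, so that setting lies close to the values as deposited. The causes of the other shifts were not tested.

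Of 117 values of single receptors over these alternatives, 72 moved by less than their counting error and 45 by more, and of 64 values of 8 co-regulators 31 and 33 did. In both, 0 called values changed sign, but values within 2-fold did. Nr1d2, Rora, Vdr and Rxra, below the median gene in the main setting, reached log2 folds of 0.52, 0.58, 0.62 and 0.58 with TPM. Those TPM values were not centred on the median gene. Nr2c1 and Nr2f2, above the median gene in the main setting, reached -0.03 with a pseudocount of 5 FPKM and -0.12 with the most abundant transcript. Hdac4, below the median gene in the main setting, reached 0.0009 as deposited, which is also not centred. Depth limits what can be said of the 33 receptors under 1 FPKM, most of which rest on fewer than 10 fragments per library, and of splits between transcripts that differ by a few bases. The bounds and intervals cover 1 library each and hold no spread between cultures.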

Other observations

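The chaperones that hold steroid receptors ready for ligand ranged from under 1 FPKM to some of the abundant genes of both libraries. Of 15, 14 reached 1 FPKM, and relative to the median gene 2 were at least 2-fold higher and 2 lower, near the shares of 10.3% and 11.8% over all genes and loci. As deposited 10 were higher and 0 lower, beside 42.0% and 4.67%. Hsp90aa1, the inducible HSP90, rose from 22.2 to 92.4 FPKM (relative log2 fold 1.15), and Hspa8, the constitutive HSC70, fell from 1649.5 to 972 FPKM (-1.62). Ptges3, the cochaperone p23, was at 196 and 157 FPKM (-1.18). The other 1 that rose was Ppp5c, a phosphatase of receptor complexes named after its value was seen, from 0.0603 to 3.52 FPKM with 1 and 61 fragments.

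All 4 of the 8 oestrogen response genes that reached 1 FPKM were at least 2-fold higher as deposited, but relative to the median gene only Cxcl12, the stromal chemokine, was, at 60.4 and 318 FPKM (1.52), beside 42.0% of all genes and loci as deposited and 10.3% relative to the median gene. Igf1, Myc and Ccnd1 had relative log2 folds of 0.82, 0.89 and 0.26. Of the thyroid hormone response genes 2 of 6 matched reached 1 FPKM, and both lay within 2-fold of the median gene. Of the 7 matched vitamin D response genes Spp1 alone did, and it fell from 48577 to 234 FPKM (-8.55). On chromosome 14 Thrb lies 1086 kb from Rarb and 166 kb from Nr1d2, and the ratios of deficient over floxed were 0.0968 for Thrb, 2.90 for Rarb from 2 and 6 fragments, and 1.86 for Nr1d2.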
